A study of Homo sapiens with 12 samples.

Results

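The hypoxia-inducible factors (HIFs) and the proteins that sense oxygen for them were described here at the mRNA level in MDA-MB-231 cells, an established human cell line of triple-negative breast cancer origin. The 10 genes are the alpha subunits HIF1A, EPAS1 and HIF3A, the beta subunits ARNT and ARNT2, the prolyl hydroxylases EGLN1, EGLN2 and EGLN3, the asparaginyl hydroxylase HIF1AN and the ubiquitin ligase component VHL. They were taken by symbol from the 60664 genes of the count table. RNA-seq libraries came from wild-type (WT) cells left untreated in normoxia, WT cells kept in hypoxia (1% O2) for 24 h, and untreated cells with the genotype CCAR2-/- (CCAR2 KO), with 4 libraries per group. CCAR2 encodes the nuclear protein DBC1, and the knockout was made with a lentiviral CRISPR vector. Whether the knockout cells were a pool or 1 clone was not stated in the sources used here, and CCAR2 KO cells in hypoxia were not analysed here.

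A HIF is a dimer of an oxygen-regulated alpha subunit and a stable beta subunit. When oxygen is present, EGLN enzymes hydroxylate prolines of the alpha subunit, VHL recognises the hydroxylated protein and the alpha subunit is degraded, while HIF1AN hydroxylates an asparagine and blocks the binding of coactivators. In hypoxia these enzymes slow, the alpha protein accumulates without any need for more mRNA, and the dimer switches on genes of glycolysis, angiogenesis and pH control, with EGLN1 and EGLN3 among its known targets.

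Library sums lay between 153904088 and 213743693 counts in WT normoxia, between 76384973 and 195621872 in WT hypoxia and between 68599412 and 152328450 in CCAR2 KO. CCAR2 mRNA, as CPM, the count relative to the library total scaled by edgeR's TMM factors, was 144, 145, 146 and 151 in WT normoxia, 149, 143, 154 and 152 in WT hypoxia, and 54.7, 56.7, 61.3 and 58.5 in CCAR2 KO. The knockout libraries were therefore all below the others, with some CCAR2 mRNA left. Of the markers of MDA-MB-231 cells, VIM, CD44, AXL and ZEB1 were present in every library, and ZEB1 fell by 0.52 on the log2 scale in hypoxia (edgeR adjusted p = 0.00122). Of 5 genes that such cells are known to lack or hold at a low level, ESR1, PGR and CDH1 stayed below 1 CPM, while GATA3 lay between 4.83 and 8.21 CPM and ERBB2 between 88.8 and 107 CPM. The summed level of 7 markers of blood, endothelial, stromal and liver cells was 16.4 to 19.2 CPM in WT normoxia, 17.2 to 21.7 CPM in WT hypoxia and 25.7 to 29.3 CPM in CCAR2 KO, where PECAM1, COL1A1 and PDGFRB rose. PTPRC, at most 0.236 CPM in any library, had a log2 fold change of -1.59 in CCAR2 KO without overlap (edgeR adjusted p = 0.0523), and DESeq2 and limma-voom called it lower. CD3E and ALB were at or near 0 in all libraries, and the part of these markers in the results was not tested. The methods speak of biological replicates, but in numbers that differ between passages and from the number of libraries here. Whether the libraries of a group came from separate cultures is therefore not settled, and the p-values measure the spread between these libraries, and in bulk RNA fewer cells of a type and less RNA per cell cannot be told apart.

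The question of the first comparison was how 24 h of hypoxia changed the cells. HIF1A mRNA fell while EGLN1 and EGLN3 mRNA rose. Genes were called at an adjusted p under 0.05 with edgeR's quasi-likelihood test and a log2 fold change of at least 0.5 in either direction. Of the 9 members that could be tested, 2 were called higher and 1 lower, where 5.83% of all genes tested were called higher and 1.43% lower. The 4 hypoxic libraries did not overlap the 4 normoxic ones in 4 members, HIF1A, ARNT, EGLN1 and EGLN3, against 26.4% of all genes. The median log2 fold change was 0.04 over the members and 0.0113 over all genes.

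The second comparison asked what the loss of CCAR2 changed in normoxia. HIF1A, EPAS1, ARNT2 and EGLN3 mRNA rose, so that 4 of 9 members were called higher and 0 lower, against 6.73% and 2.94% of all genes. At an unadjusted p under 0.05 with edgeR no member was lower, and with DESeq2 or limma-voom none was called lower. In 6 members the groups did not overlap, against 30.8% of all genes, and the median log2 fold change was 0.28 over the members and 0.00902 over all genes.

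CCAR2 KO cells in normoxia were also compared with WT cells in hypoxia. These groups differ in both genotype and oxygen, and this comparison cannot tell them apart. HIF1A, EPAS1 and ARNT2 were higher and EGLN1 and EGLN3 lower in the knockout. That is 3 of 9 members called higher and 2 lower, against 7.08% and 7.88% of all genes. The groups did not overlap in 7 members, against 35.9% of all genes. The median log2 fold change was 0.12 over the members and -0.0171 over all genes. The first 2 comparisons share the WT normoxia libraries, and each is given with its own values throughout.

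**Figure D1:**
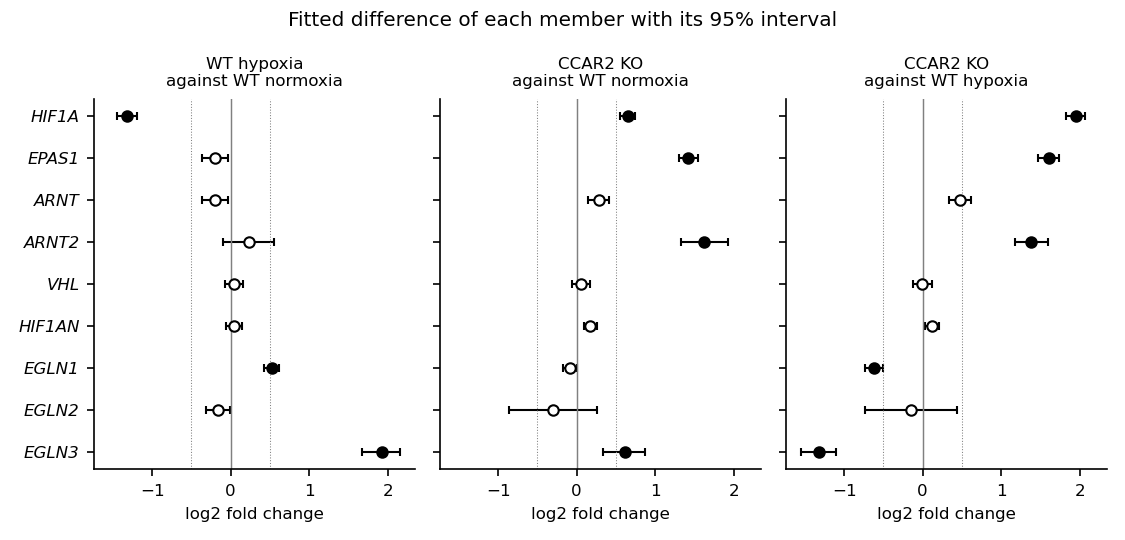
Fitted log2 fold change (x axis) of the 9 members tested (y axis) in each of the 3 comparisons, with its 95% interval from edgeR. Filled points passed the adjusted p and the limit of 0.5 marked by dotted lines, and open points did not: HIF1A lies at -1.32 in hypoxia and at 0.65 in CCAR2 KO, whereas EGLN3 lies at 1.92 and 0.61.

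The stretches of DNA ahead of the 2 hydroxylase genes that rose in hypoxia and of the 2 expressed alpha subunit genes are shown because HIF dimers are known to bind a short core, ACGTG or GCGTG. Each is the 250 bases before a transcription start in RefSeq on GRCh38.p14, read 5′ to 3′ on the strand of the gene, with every core on that strand in capitals. The windows are chr1:231422288-231422537 (minus strand) for EGLN1, chr14:33951075-33951324 (minus strand) for EGLN3, chr14:61695263-61695512 (plus strand) for HIF1A and chr2:46297157-46297406 (plus strand) for EPAS1.
EGLN1: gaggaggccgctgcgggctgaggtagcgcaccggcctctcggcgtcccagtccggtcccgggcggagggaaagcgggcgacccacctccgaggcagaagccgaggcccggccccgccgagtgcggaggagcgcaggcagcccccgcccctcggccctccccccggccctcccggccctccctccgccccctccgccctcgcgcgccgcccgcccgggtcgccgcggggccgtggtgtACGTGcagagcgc
EGLN3: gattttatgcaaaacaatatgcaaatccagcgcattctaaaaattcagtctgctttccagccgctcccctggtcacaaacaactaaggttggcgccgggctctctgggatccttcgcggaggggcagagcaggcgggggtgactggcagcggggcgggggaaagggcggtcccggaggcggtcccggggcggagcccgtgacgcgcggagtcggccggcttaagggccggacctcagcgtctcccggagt
HIF1A: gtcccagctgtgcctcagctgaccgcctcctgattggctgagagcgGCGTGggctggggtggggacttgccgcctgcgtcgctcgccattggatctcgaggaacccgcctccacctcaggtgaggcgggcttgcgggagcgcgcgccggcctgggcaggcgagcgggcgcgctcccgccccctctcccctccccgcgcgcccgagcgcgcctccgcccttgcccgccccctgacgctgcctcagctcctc
EPAS1: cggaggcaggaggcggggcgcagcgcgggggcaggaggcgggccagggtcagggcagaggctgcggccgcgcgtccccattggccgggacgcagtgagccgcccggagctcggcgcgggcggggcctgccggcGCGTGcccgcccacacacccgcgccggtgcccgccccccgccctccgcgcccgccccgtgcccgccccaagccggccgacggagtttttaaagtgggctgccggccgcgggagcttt
The EGLN1 window holds ACGTG 13 bases before the start, counted from the first base of the core. The EGLN3 window holds neither core on either strand. In the windows shown, HIF1A has GCGTG 204 bases and EPAS1 GCGTG 117 bases before the start. A second RefSeq window of HIF1A, chr14:61697462-61697711, holds neither core. Among the other members, EGLN2 has ACGTG on both strands in its first window, 49 and 48 bases before the start, as the palindrome of CACGTG. HIF3A has 3 GCGTG in its first window, and the further windows of EGLN2 and HIF3A hold neither core. ARNT and HIF1AN have neither core. VHL and ARNT2 have no entry in the table. Over 35116 RefSeq windows of the same length, 18.5% hold ACGTG, 32.2% hold GCGTG and 43.2% hold at least 1 of them on either strand. A match is a description of these letters and not a bound site.

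HIF1A, the alpha subunit found in most tissues (ENSG00000100644, GRCh38 chr14:61695513-61748259, plus strand), had the highest mRNA level of the alpha subunits in every library. It stood at 282, 258, 255 and 258 CPM in WT normoxia, at 110, 102, 113 and 101 CPM in WT hypoxia and at 428, 409, 395 and 416 CPM in CCAR2 KO. The 3 groups did not overlap, with the hypoxic libraries lowest and the knockout libraries highest. HIF1A fell by 1.32 on the log2 scale in hypoxia (SE 0.06, edgeR adjusted p = 2.9e-07), which left 0.402 of the normoxic level. In CCAR2 KO it rose 1.57-fold, a log2 fold change of 0.65 (SE 0.04, edgeR adjusted p = 4.7e-07). The knockout cells in normoxia held 3.87 times the HIF1A mRNA of hypoxic WT cells (edgeR adjusted p = 3.3e-09).

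EPAS1 encodes the second oxygen-regulated alpha subunit, known as HIF2-alpha, which is prominent in endothelium and kidney (ENSG00000116016, chr2:46293667-46386703, plus strand). Its mRNA was 27.4, 26.6, 24.3 and 29 CPM in WT normoxia, 24.6, 21.1, 25.3 and 23.1 CPM in WT hypoxia and 70.2, 72.8, 71.8 and 72 CPM in CCAR2 KO. The normoxic and hypoxic libraries overlapped, and all knockout libraries were far above both. The log2 fold change in hypoxia was -0.20, with a 95% interval of -0.36 to -0.04 and an edgeR adjusted p of 0.0775. In CCAR2 KO EPAS1 rose 2.67-fold, by 1.42 on the log2 scale (SE 0.05, edgeR adjusted p = 8.2e-09), and it was 3.04 times the level of hypoxic WT cells (edgeR adjusted p = 1.6e-08). The endothelial markers PECAM1 and CDH5 reached at most 5.76 and 0.255 CPM in any library, and PECAM1 rose by 1.11 on the log2 scale in CCAR2 KO. Their part in the EPAS1 result was not tested.

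HIF3A, an alpha subunit whose short isoforms oppose the other two, was not detectable at this depth. It had 4 counts in WT normoxia replicate 4, 0.0262 CPM, and 0 in the other 11 libraries, where a count of 0 allows up to 3 counts, that is 0.0144 to 0.043 CPM over the 12 libraries. These limits cover counting error only. HIF3A did not pass the filter on low counts and was not tested.

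**Figure D2:**
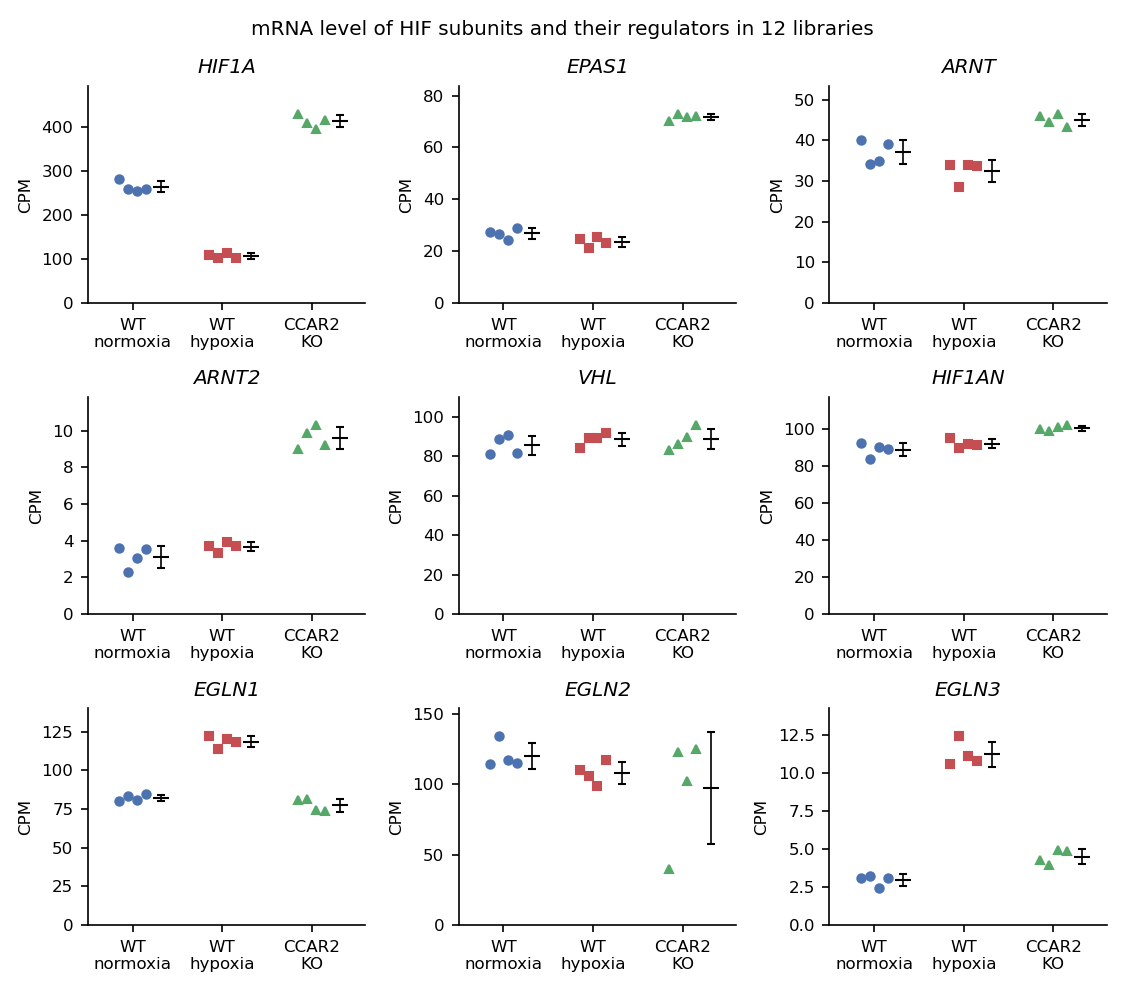
CPM (y axis, from 0, a scale per gene) of each library for the 9 members above the filter, in 3 groups (x axis), with the mean and SD (n = 4) beside the points. HIF1A is lowest in hypoxia and highest in CCAR2 KO, EPAS1 and ARNT2 stand apart in CCAR2 KO, EGLN1 and EGLN3 stand apart in hypoxia, and 1 CCAR2 KO library of EGLN2 lies at 39.8 CPM.

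An antisense gene overlaps the HIF1A locus. HIF1A-AS3 (ENSG00000258667, named HIF1A-AS2 in GENCODE v29, chr14:61715558-61751097, minus strand) is a long non-coding RNA gene that covers the end of HIF1A on the other strand. Its level was 6.68, 6.77, 6.97 and 6.45 CPM in WT normoxia, 17.5, 21.0, 17.2 and 20.8 CPM in WT hypoxia and 2.67, 2.31, 3.09 and 2.32 CPM in CCAR2 KO. The groups did not overlap, and their order was the reverse of that of HIF1A. HIF1A-AS3 rose by 1.50 on the log2 scale in hypoxia (SE 0.08, edgeR adjusted p = 2.0e-06). In CCAR2 KO it fell by 1.37 on the log2 scale (SE 0.11, edgeR adjusted p = 1.9e-06).

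The count ratio of HIF1A to HIF1A-AS3 was 39.2 ± 2.42 (SD, n = 4) in WT normoxia, 5.64 ± 0.925 in WT hypoxia and 161 ± 23.9 in CCAR2 KO, with no overlap between the groups. Over the 12 libraries, which share the groups as a source of spread, Pearson's r of log2 CPM was -0.98. In GENCODE v29, which need not be the annotation behind the counts, the exons of the pair share 0 bases. Whether counting used the strand was not stated, so reads of the pair could not be surely told apart. HIF1A-AS1, the antisense gene at the start of HIF1A, with 117 shared exon bases, stayed between 0.14 and 0.314 CPM and was not called in any comparison.

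**Figure D3:**
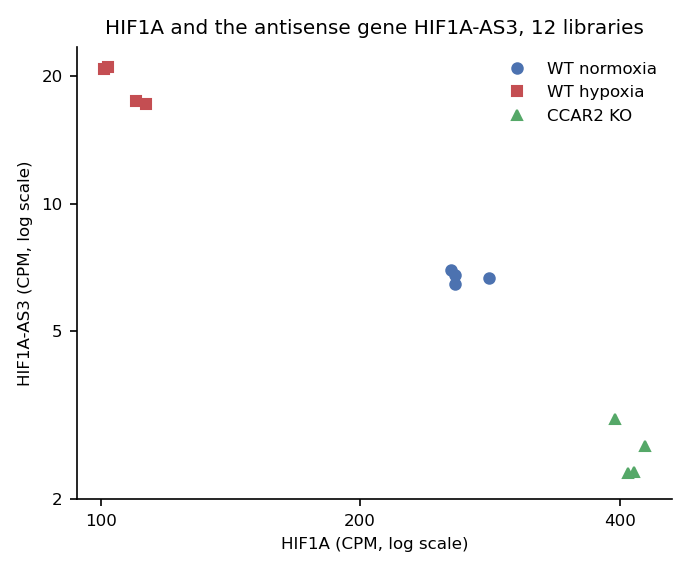
HIF1A (x axis) against HIF1A-AS3 (y axis) in CPM, both on log scales, 1 point per library. The hypoxic libraries sit at the upper left (HIF1A 101 to 113 CPM), the normoxic ones in the middle (255 to 282 CPM) and the CCAR2 KO libraries at the lower right (395 to 428 CPM).

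ARNT, the common beta subunit and dimer partner of the alpha subunits (ENSG00000143437, chr1:150809705-150876768, minus strand), differed by less than the limit in each comparison. It was 40.2, 34.3, 34.8 and 39.1 CPM in WT normoxia, 33.9, 28.5, 33.9 and 33.6 CPM in WT hypoxia and 45.9, 44.4, 46.4 and 43.2 CPM in CCAR2 KO. The groups did not overlap, although the highest hypoxic and the lowest normoxic library lay close together. The log2 fold change was -0.20 in hypoxia (edgeR adjusted p = 0.0772). In CCAR2 KO it was 0.28 (edgeR adjusted p = 0.00366), past the p but under 0.5, and against hypoxia it was 0.47 (edgeR adjusted p = 1.9e-04).

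ARNT2, a beta subunit better known from neurons (ENSG00000172379, chr15:80404350-80597937, plus strand), was scarce in WT cells. It was 3.58, 2.28, 3.05 and 3.55 CPM in WT normoxia, 3.69, 3.33, 3.94 and 3.70 CPM in WT hypoxia and 9.02, 9.86, 10.3 and 9.22 CPM in CCAR2 KO. Every knockout library was above every WT library, and the WT groups overlapped. ARNT2 rose 3.08-fold in CCAR2 KO, by 1.62 on the log2 scale (SE 0.13, edgeR adjusted p = 2.6e-06). In hypoxia its log2 fold change was 0.23, with a 95% interval of -0.10 to 0.55 and an edgeR adjusted p of 0.312.

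VHL, the substrate receptor of the ubiquitin ligase that takes hydroxylated alpha subunits (ENSG00000134086, chr3:10141008-10152220, plus strand), varied little. Its level was 81.0, 88.6, 90.9 and 81.5 CPM in WT normoxia, 84.2, 89.1, 89.4 and 91.9 CPM in WT hypoxia and 83.4, 86.4, 89.7 and 95.7 CPM in CCAR2 KO. The groups overlapped in all 3 comparisons. The 95% interval of the log2 fold change was -0.07 to 0.16 in hypoxia, -0.06 to 0.17 in CCAR2 KO and -0.12 to 0.12 between CCAR2 KO and hypoxia, and the lowest edgeR adjusted p was 0.505.

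HIF1AN, the hydroxylase also called factor inhibiting HIF (ENSG00000166135, chr10:100529072-100559998, plus strand), was 92.3, 84.0, 90.1 and 89.1 CPM in WT normoxia and 95.4, 89.7, 91.9 and 91.5 CPM in WT hypoxia. In CCAR2 KO it was 100, 98.9, 101 and 102 CPM, above every WT library. Its log2 fold change was 0.17 in CCAR2 KO (SE 0.04, edgeR adjusted p = 0.00438), past the p but under the limit of 0.5, and 0.04 in hypoxia (edgeR adjusted p = 0.577). NDUFB8, a subunit of mitochondrial complex I, lies on the other strand and shares 325 exon bases with HIF1AN in GENCODE v29, and was not called in any comparison.

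EGLN1, the main prolyl hydroxylase acting on HIF1A protein in most cells (ENSG00000135766, chr1:231363751-231425044, minus strand), was 80.3, 83.3, 80.5 and 84.5 CPM in WT normoxia. It stood at 122, 114, 120 and 118 CPM in WT hypoxia and at 80.9, 81.2, 74.3 and 73.5 CPM in CCAR2 KO. All hypoxic libraries were above the rest, and the knockout libraries overlapped the normoxic ones. EGLN1 rose 1.43-fold in hypoxia, by 0.52 on the log2 scale (SE 0.05, edgeR adjusted p = 4.6e-05), a value close to the limit of 0.5. The call was lost at 0.50 on the log2 scale, just under that limit, when no filter on low counts was applied. In CCAR2 KO the log2 fold change was -0.09, with a 95% interval of -0.18 to 0.01 (edgeR adjusted p = 0.191), and against hypoxia it was -0.62 (edgeR adjusted p = 3.4e-06).

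EGLN3, the prolyl hydroxylase best known for its induction by hypoxia (ENSG00000129521, chr14:33924231-34462774, minus strand), had the largest log2 fold change of the members in hypoxia. It was 3.08, 3.24, 2.42 and 3.09 CPM in WT normoxia, 10.6, 12.4, 11.1 and 10.8 CPM in WT hypoxia and 4.30, 3.93, 4.91 and 4.86 CPM in CCAR2 KO. No group overlapped another, and the knockout libraries lay between the WT groups, nearer to normoxia. EGLN3 rose 3.78-fold in hypoxia, by 1.92 on the log2 scale (SE 0.11, edgeR adjusted p = 2.2e-06). In CCAR2 KO it rose 1.52-fold, by 0.61 on the log2 scale (SE 0.12, edgeR adjusted p = 0.00231). The knockout held 0.4 of the hypoxic level (edgeR adjusted p = 2.6e-06).

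EGLN2, the prolyl hydroxylase known for responding to estrogen (ENSG00000269858, chr19:40798996-40808433, plus strand), was 114, 134, 117 and 115 CPM in WT normoxia and 110, 106, 98.5 and 117 CPM in WT hypoxia. In CCAR2 KO it was 39.8, 123, 102 and 125 CPM, so that replicate 1 stood far below the other 11 libraries. The log2 fold change was -0.16 in hypoxia (edgeR adjusted p = 0.108) and -0.30 in CCAR2 KO, with a 95% interval of -0.86 to 0.26 (edgeR adjusted p = 0.438).

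The read-through gene RAB4B-EGLN2 (ENSG00000171570, chr19:40778242-40808418), a transcript that joins the gene upstream to EGLN2, shares 2012 exon bases with EGLN2 on the same strand. It was 0, 0, 17.5 and 21.6 CPM in WT normoxia, 0, 0.0735, 21 and 0 CPM in WT hypoxia and 73.4, 0.043, 36.2 and 0 CPM in CCAR2 KO. It was thus at or near 0 in 7 libraries and above 17 CPM in the others, in no order by group. In CCAR2 KO replicate 1 it took 64.9% of the sum of both genes, against 26.2% in replicate 3 and at most 17.6% in the WT libraries.

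With both genes added, an alternative chosen after seeing the data, the sum was 130 ± 10.2 CPM (SD, n = 4) in WT normoxia, 113 ± 6.22 CPM in WT hypoxia and 125 ± 10.4 CPM in CCAR2 KO, and replicate 1 of the knockout stood at 113 CPM. The log2 fold change of the sum was -0.21 in hypoxia (edgeR adjusted p = 0.0434), past the p but under the limit of 0.5, and -0.05 in CCAR2 KO (edgeR adjusted p = 0.607). Between CCAR2 KO and hypoxia it was 0.14 (edgeR adjusted p = 0.12), where EGLN2 alone gave -0.15 (edgeR adjusted p = 0.723).

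**Figure D4:**
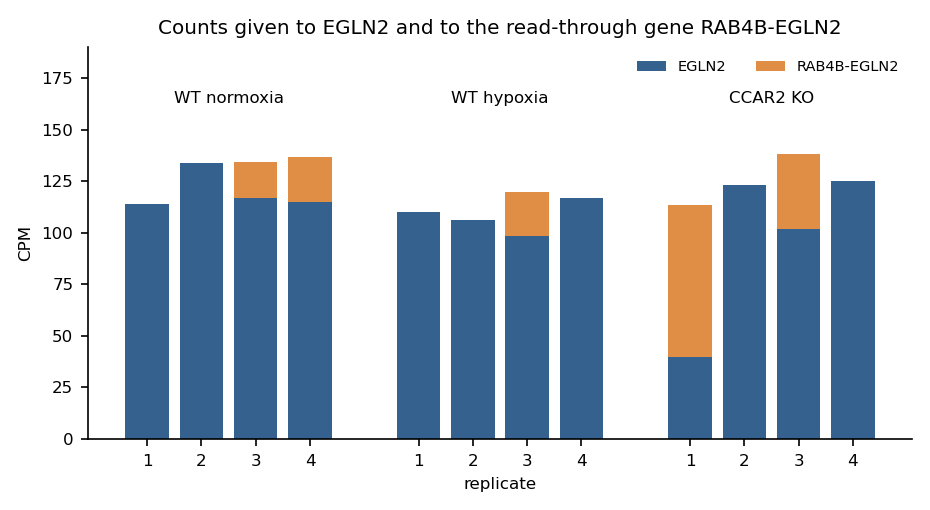
CPM (y axis) given to EGLN2 and, stacked on it, to RAB4B-EGLN2 in each library (x axis, replicates 1 to 4 of each group). In CCAR2 KO replicate 1 the stacked height of 113 CPM is made of 39.8 CPM of EGLN2 and 73.4 CPM of the read-through gene.

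A two-sided exact permutation test on the log2 CPM of each member, 27 tests in all, gave an unadjusted p of 0.0286 in the 17 cases where the groups did not overlap. With 4 libraries against 4 this is the smallest p that permutations can give, and RLE in place of TMM scaling gave the same count. Such a p restates the lack of overlap, and the 3 comparisons share libraries. Of all genes tested, 26.4% did not overlap in hypoxia, 30.8% in CCAR2 KO and 35.9% in CCAR2 KO against hypoxia. Among the members, the smallest p was reached in all 3 comparisons by HIF1A, ARNT and EGLN3, and in none by VHL and EGLN2.

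Levels of different genes were compared as CPM per kilobase of merged exons in GENCODE v29. The alpha subunits summed to 54.8 ± 2.49 CPM per kilobase (SD, n = 4) in WT normoxia, 23.9 ± 1.43 in WT hypoxia and 89.8 ± 2.6 in CCAR2 KO. HIF1A made up 93.3% ± 0.472 of that sum in WT normoxia, 86.5% ± 0.487 in WT hypoxia and 89.1% ± 0.429 in CCAR2 KO, and EPAS1 nearly all of the rest, 6.71%, 13.5% and 10.9%. The EPAS1 share was thus higher in both other groups than in WT normoxia, in hypoxia beside a lower HIF1A level and in the knockout beside a higher EPAS1 level. The level of HIF1A over that of EPAS1 was 14.0 ± 1.01 in WT normoxia, 6.43 ± 0.276 in WT hypoxia and 8.15 ± 0.366 in CCAR2 KO, without overlap.

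HIF1A stood above its partner ARNT in every library. Its level per length over that of ARNT was 8.99 ± 0.509 (SD, n = 4) in WT normoxia, 4.16 ± 0.294 in WT hypoxia and 11.6 ± 0.6 in CCAR2 KO. ARNT2 gave 6.55% ± 0.847 of the beta subunit sum in WT normoxia, 8.69% ± 0.289 in WT hypoxia and 15.2% ± 0.751 in CCAR2 KO, so ARNT remained the main beta subunit in all groups. The level of HIF1A over that of its hydroxylase EGLN1 was 4.52 ± 0.288, 1.27 ± 0.0542 and 7.51 ± 0.361 in the same order of groups, and no group overlapped another.

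Among the prolyl hydroxylases, with the read-through gene added to EGLN2 and divided by the length of EGLN2, EGLN1 made up 36.0% ± 1.54 of the sum (SD, n = 4) in WT normoxia, 46.6% ± 1.05 in WT hypoxia and 35.3% ± 2.88 in CCAR2 KO. EGLN2 made up 62.7% ± 1.68, 49.1% ± 1.21 and 62.7% ± 2.78. EGLN3 stayed a minor part, at 1.28% ± 0.181, 4.37% ± 0.447 and 2.02% ± 0.193. EGLN1 was thus 28.5 ± 3.57 times EGLN3 per length in WT normoxia and 10.7 ± 0.995 times in WT hypoxia. These sizes depend on the length used. With the longest transcript in place of merged exons the ratio was 11.3 ± 1.42 and 4.25 ± 0.395, and the EGLN3 share was 2.27%, 7.96% and 3.54% in the same order of groups.

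**Figure D5:**
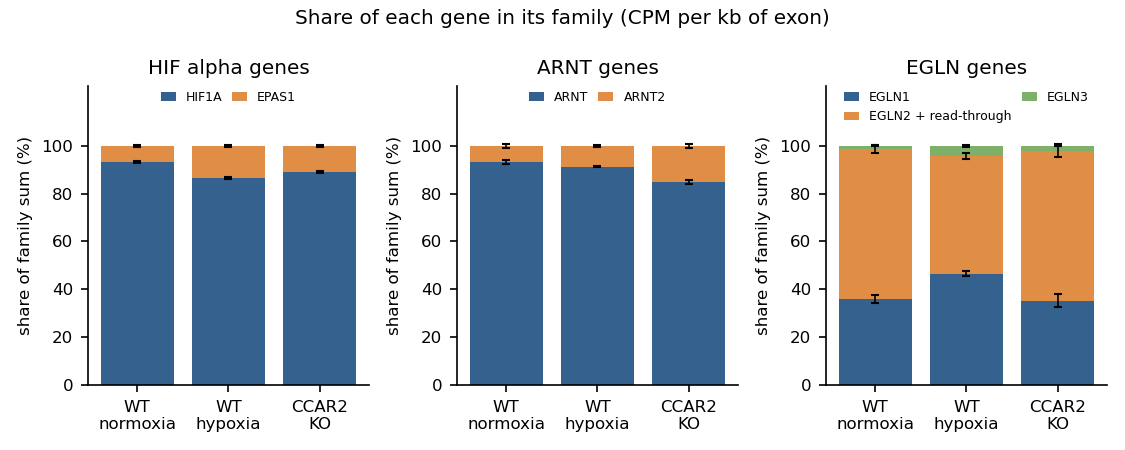
Share (y axis, percent, mean with SD, n = 4) of each gene in the summed CPM per kilobase of its family, in 3 groups (x axis). EPAS1 goes from 6.71% in WT normoxia to 13.5% in WT hypoxia, ARNT2 to 15.2% in CCAR2 KO, and EGLN1 from 36.0% to 46.6% in hypoxia.

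By level per length, the order in WT normoxia was HIF1A at 51.1 CPM per kilobase, VHL at 20.3, EGLN2 at 18.2, EGLN1 at 11.3, HIF1AN at 6.37, ARNT at 5.7, EPAS1 at 3.67, ARNT2 and EGLN3 both at 0.402, and HIF3A. VHL and EGLN2, HIF1AN and ARNT, and ARNT2 and EGLN3 overlapped between libraries and could not be ordered. In WT hypoxia HIF1A, at 20.6, no longer stood apart and overlapped VHL at 21.1, EGLN2 and EGLN1 overlapped at 16.4 and 16.3, and EGLN3 at 1.53 was above ARNT2 at 0.473. In CCAR2 KO HIF1A led at 80 CPM per kilobase, and EPAS1 at 9.82 stood above HIF1AN at 7.19 and ARNT at 6.9, which overlapped each other. The order depends on the length used: with the longest transcript EGLN2 stood above VHL in WT normoxia, while it overlapped HIF1A in WT hypoxia and VHL in CCAR2 KO. Among other moves by that length, EGLN3 at 1.04 stood above ARNT2 at 0.465 in WT normoxia. In WT hypoxia EPAS1 and EGLN3 overlapped, and in CCAR2 KO EPAS1 at 13.9 stood above EGLN1 at 10.9. EGLN2 was ranked here without the read-through gene. Its lowest CCAR2 KO value by that length, 10.2 CPM per kilobase, was that of replicate 1, where RAB4B-EGLN2 took 64.9% of the sum of both genes.

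The genes whose log2 CPM followed each called member most closely over the 12 libraries were taken from 13683 genes with a mean of at least 100 counts. HIF1A was followed by CCN3 and PGM2L1 (Pearson's r = 0.996 each) and TOP1 (0.993), EPAS1 by JAG1 (0.998), GALNT10 (0.996) and GRB10 (0.995), and ARNT2 by C15orf39 (0.986), TBC1D8 and LTBP1 (0.983 each). EGLN1 was followed by RASSF2 (0.983), RNF187 (0.982) and ROBO4 (0.980), and EGLN3 by FUT11 (0.987), TUBGCP2 (0.986) and LRSAM1 (0.985). The 12 points fall into 3 groups, so these values describe group levels more than libraries. JAG1, a Notch ligand, had log2 fold changes of -0.23 in hypoxia and 1.80 in CCAR2 KO, and CCN3, a secreted matricellular protein, -0.78 and 0.32. Among the members themselves, log2 CPM of HIF1A and EGLN1 had r = -0.96, EPAS1 and ARNT2 0.95, and EGLN1 and EGLN3 0.87.

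The other parts of the VHL ligase, the scaffold CUL2, the ring protein RBX1 and the elongins ELOB and ELOC, gave 0 calls of 4 genes in each comparison. With edgeR at an unadjusted p under 0.05, 2 were lower in hypoxia, 2 lower in CCAR2 KO and 1 lower in CCAR2 KO against hypoxia. Their median log2 fold changes were -0.08, -0.15 and -0.07, beside 0.0113, 0.00902 and -0.0171 over all genes. Of 14 genes whose products act on the HIF or hydroxylase proteins, such as SIAH1, SIAH2, the HSP90 chaperones and FKBP8, 0 were called in any comparison. At an unadjusted p under 0.05, edgeR gave 5 higher and 3 lower in hypoxia, 4 higher and 5 lower in CCAR2 KO, and 2 higher and 5 lower between CCAR2 KO and hypoxia. In hypoxia USP20 was at 0.48 (edgeR adjusted p = 5.0e-04) and SENP1 at -0.34 (edgeR adjusted p = 0.00343), both under the limit of 0.5. DESeq2 and limma-voom also called 0 genes of both lists. Of all genes tested, edgeR called 5.83% higher and 1.43% lower in hypoxia and 6.73% and 2.94% in CCAR2 KO. In CCAR2 KO against hypoxia it called 7.08% and 7.88%. At these shares 0 calls of 4 or 14 genes do not set the lists apart from other genes. The shares apply to the lists below too.

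Genes known to act on HIF1A mRNA were 7, among them the NF-kB subunit RELA, the factor SP1 and the RNA-binding proteins ZFP36 and ELAVL1. Of these, 0 were called in any comparison. The shares of all genes called higher and lower were 5.83% and 1.43% in hypoxia and 6.73% and 2.94% in CCAR2 KO. In CCAR2 KO against hypoxia they were 7.08% and 7.88%, so 0 of 7 lies near these shares. At an unadjusted p under 0.05 edgeR gave 1 higher and 3 lower in hypoxia, 3 higher and 1 lower in CCAR2 KO, and 3 higher and 2 lower between CCAR2 KO and hypoxia, and DESeq2 and limma-voom called 0. ELAVL1 had log2 fold changes of -0.14 in hypoxia and -0.26 in CCAR2 KO, and STAT3 of -0.12 and 0.15. In CCAR2 KO ELAVL1 (edgeR adjusted p = 5.5e-04) and STAT3 (edgeR adjusted p = 0.00759) were past the p but under the limit. So were ZFP36L1 at 0.18 (edgeR adjusted p = 0.00791) and SP1 at 0.20 (edgeR adjusted p = 0.0183) there. In hypoxia ZFP36L1 was at 0.32 (edgeR adjusted p = 0.00775) and NFKB1 at -0.21 (edgeR adjusted p = 0.0282). Both were past the p but under the limit of 0.5, and the part of these genes in the HIF1A result was not tested.

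Among 6 coactivators and CITED competitors, the coactivator NCOA2 fell by 0.69 on the log2 scale in hypoxia (edgeR adjusted p = 0.00152). NCOA1 was at -0.49 there (edgeR adjusted p = 0.0211) and CITED2 at 0.31 (edgeR adjusted p = 9.1e-04), both past the p but under the limit of 0.5. None of the 6 was called in CCAR2 KO by edgeR, DESeq2 or limma-voom, and edgeR gave 4 higher and 0 lower there at an unadjusted p under 0.05. NCOA1 at 0.73 and NCOA2 at 0.82 were higher in CCAR2 KO than in hypoxia. Against WT normoxia, NCOA1 was at 0.25 (edgeR adjusted p = 0.0797) and NCOA2 at 0.14 (edgeR adjusted p = 0.27) in CCAR2 KO. EP300 and CREBBP, the acetyltransferases that HIF1AN keeps from the alpha subunits, were not called by edgeR in any comparison, while limma-voom called EP300 higher in CCAR2 KO than in hypoxia.

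A list of 10 relatives was taken from the bHLH-PAS family, to which HIF subunits belong, and does not cover the whole family. Of these, 9 passed the filter in hypoxia, 8 in CCAR2 KO and 9 in CCAR2 KO against hypoxia. AHR, the dioxin receptor that also pairs with ARNT, fell by 0.55 on the log2 scale in hypoxia (edgeR adjusted p = 0.00203). The call of AHR was lost with upper-quartile normalization, without WT normoxia replicate 1 and without WT hypoxia replicate 2, where it lay between -0.50 and -0.48. NPAS3 had a log2 fold change of 2.49 in hypoxia without overlap, with a 95% interval of 0.43 to 4.55 (edgeR adjusted p = 0.0792). limma-voom called it higher, but it did not pass the filter on low counts in CCAR2 KO against WT normoxia. In CCAR2 KO AHR rose by 0.86 (edgeR adjusted p = 2.4e-06), the clock factor NPAS2 rose by 1.13 (edgeR adjusted p = 2.9e-08), and SIM2 fell by 0.66 (edgeR adjusted p = 0.00469). AHR at 1.40, NPAS2 at 1.14 and BMAL1 at 0.57 were higher in CCAR2 KO than in hypoxia.

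Of 16 known HIF targets, 15 rose and 0 fell in hypoxia by edgeR, DESeq2 and limma-voom alike, and the edgeR median log2 fold change over the 16 was 1.27. With edgeR's unadjusted p at a limit of 0.05, the number of lower targets was also 0. The largest were the carbonic anhydrase CA9 at 6.21, NDRG1 at 2.60 and the lipase inhibitor ANGPTL4 at 2.52. The glycolytic enzyme ENO1, at 0.41, was the only one of the 16 not called, and ADM was called at 0.52 but not with no filter or without WT normoxia replicate 1 or WT hypoxia replicate 2. The targets thus rose in the libraries in which HIF1A mRNA was lowest.

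In CCAR2 KO, where HIF1A and EPAS1 mRNA were highest, 3 of the 16 targets were called higher, against 6.73% of all genes. These were VEGFA at 0.86, the mTOR inhibitor DDIT4 at 0.58 and ANGPTL4 at 0.52. ADM, the 1 target called lower, fell by 1.00 on the log2 scale, against 2.94% of all genes called lower. At an unadjusted p under 0.05 edgeR gave 8 higher and 4 lower. Past the adjusted p but under the limit were, among others, SLC2A1 at 0.44, NDRG1 at 0.37, LDHA at -0.19 and BNIP3 at -0.28. The median over the 16 was 0.15, beside 0.00902 over all genes, and the ANGPTL4 call was lost with no filter or without WT normoxia replicate 1. CCAR2 KO cells in normoxia and WT cells in hypoxia differ in both genotype and oxygen. Between them 13 targets were lower in the knockout and 0 higher, with a median of -1.21. At an unadjusted p under 0.05 edgeR also gave 0 higher there, and DESeq2 and limma-voom called 0 higher.

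Among targets tied mainly to EPAS1, the growth factor TGFA rose by 0.92 in CCAR2 KO (edgeR adjusted p = 4.2e-08). CCND1, at 0.04, and POU5F1, at -0.18 (edgeR adjusted p = 0.794), were not called there. In hypoxia TGFA was at 0.34 (edgeR adjusted p = 0.00151), past the p but under the limit of 0.5. TGFA was higher by 0.57 and POU5F1 was lower, at -1.35, in CCAR2 KO than in hypoxia, and the POU5F1 call was lost without WT hypoxia replicate 1 or without CCAR2 KO replicate 1, 2 or 4. POU5F1 rose by 1.16 in hypoxia (edgeR adjusted p = 0.0379), a call that 8 of 18 alternatives lost, limma-voom among them. EPO, the kidney hormone, was not above the filter in any comparison.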

How the data were processed

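RNA-seq was analysed in 12 libraries, grouped by genotype and treatment in the labels, all of which were used. The authors deposited estimated counts per gene, which are whole numbers without scaling to library size. According to the methods the authors cleaned paired-end reads, aligned them with Hisat2 and quantified them with StringTie, whereas the submitters' processing notes name HISAT2, SAMtools and featureCounts. Build, annotation, strand and the step from coverage to counts are not given in the sources used here, and the labels and the methods name different extraction reagents and kits. Estimated counts of overlapping genes depend on how reads were split between them. The members and lists were chosen with earlier results of these data known.

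Each comparison was fitted over all genes on its 8 libraries with edgeR 4.0.16 in R 4.3.3 (TMM, filterByExpr, glmQLFit, glmQLFTest, Benjamini-Hochberg). Intervals are 95% and use the degrees of freedom of the fit. CPM were scaled by TMM over all 12 libraries. Positions and exon lengths are from GENCODE v29 on GRCh38, and promoter windows from RefSeq. Named genes were the members, CCAR2, genes overlapping a member, the called genes of each list (or the 3 with the largest log2 fold change where more than 6 were called) and the 3 genes most like each called member. Some list genes not called are named as examples. The lists were parts of the VHL ligase, coactivators and CITED competitors, protein regulators, bHLH-PAS relatives, regulators of HIF1A mRNA, HIF targets, targets tied to EPAS1, and cell markers. The scripts were tested on simulated data. Alternatives were DESeq2 1.42.0, limma-voom (limma 3.58.1), 2 further normalizations (upper-quartile and RLE), omission of the filter, a stricter filter of 10 counts or more per library, calls by adjusted p-value only, counts divided by 4, the replicate number as a block, a joint fit of the 12 libraries, omission of single libraries, the longest transcript as length and, chosen after seeing the data, EGLN2 summed with RAB4B-EGLN2. One gene of the list of targets tied mainly to EPAS1 is not reported here.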

Additional observations from a re-analysis of the deposited data

Results flagged for a closer look

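Within each group of 4 libraries, a gene was looked at again where the highest or lowest library lay apart from the other 3 by more of the range than Dixon's 95% critical value. Of 40 such groups 6 passed, and chance passes about 1 in 20, that is 2 of 40. EGLN2, RAB4B-EGLN2 and their sum share counts, so the groups are not independent and these numbers are not a test. The gap over the range was 0.881 for HIF1A in WT normoxia, where replicate 1 was at 282 CPM, and 0.941 for ARNT in WT hypoxia, where replicate 2 was at 28.5 CPM. It was 0.868 for EGLN2 in WT normoxia, with replicate 2 at 134 CPM, and 0.997 for RAB4B-EGLN2 in WT hypoxia, with replicate 3 at 21 CPM. The sum of EGLN2 and RAB4B-EGLN2 gave 0.878 in WT normoxia, with replicate 1 at 114 CPM. HIF3A gave 1 in WT normoxia, since replicate 4 held its only counts, 0.0262 CPM. A group with counts in only 1 library always gives this value. The calls of HIF1A, EPAS1, ARNT2 and EGLN3 in the report held in all 18 alternatives, which include leaving out each library.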

How the results depend on the processing

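Calls of HIF1A, EPAS1, ARNT2 and EGLN3 were the same in all 18 alternatives. With no filter, EGLN1 in hypoxia fell just under the fold limit, so that 1 member was called higher instead of 2. With the adjusted p-value alone, 2518 genes were higher and 2609 lower in hypoxia, 3199 and 3307 in CCAR2 KO, and 3628 and 3762 in CCAR2 KO against hypoxia, since no fold limit applies. Members called higher were then 6 instead of 4 in CCAR2 KO and 5 instead of 3 in CCAR2 KO against hypoxia. The limit gave 1270 and 312, 1441 and 629, and 1498 and 1667 in the same order. Upper-quartile normalization left 192 genes lower in hypoxia, and the cause was not tested. Values that changed sign were of members not called. VHL in CCAR2 KO against hypoxia was 0.00447 with RLE, 0.00437 with DESeq2 and 0.00168 with all 12 libraries in one fit, and lay between -0.0373 and 0.0311 with 1 library left out, against -0.00232. EGLN2 there was 0.14 when summed with RAB4B-EGLN2 and lay between -0.29 and 0.12 with 1 library left out, the highest without CCAR2 KO replicate 1. Leaving out 1 library changed no count of members called and no count of genes called by over 1.5 times. No clear pairing by replicate number was seen, as 0 of 4 same-numbered pairs had a correlation over 0.1 in each comparison. The same number gave the best match in 2 of 4 libraries in hypoxia, 1 of 4 in CCAR2 KO and 2 of 4 in CCAR2 KO against hypoxia. Such correlations cannot show whether same-numbered libraries were grown or prepared together. With a replicate block, 1183 genes were called higher and 324 lower in hypoxia, 1393 and 603 in CCAR2 KO, and 1478 and 1613 in CCAR2 KO against hypoxia, and every call of a member was as without it. Depth did not allow a statement on HIF3A. The order of members by level, and the size of EGLN3 beside EGLN1, depend on the transcript length used.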
